A study of Mus musculus with 4 samples.

Results

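The epithelial sodium channel and the mineralocorticoid pathway that controls it were followed in newborn mouse ureter through 8 genes, which 17 probe sets measured out of 34945 that carry a single gene symbol. The genes are the channel subunits Scnn1a, Scnn1b and Scnn1g, the ubiquitin ligase gene Nedd4l, the kinase gene Sgk1, the receptor gene Nr3c2, the steroid enzyme gene Hsd11b2 and the sodium pump subunit gene Atp1b1. Every probe set annotated to exactly one of these symbols was taken, whatever its value. The ureter group has 3 arrays of whole ureters freed of kidney and bladder, from male FVB/N mice carrying the SMGA/EGFP transgene, in which the smooth muscle gamma-actin gene lends its name and its regulatory sequence to a green fluorescent reporter. The reference has 1 array of pooled whole FVB/N mice of both sexes with no reporter. All mice were at postnatal day 1 (Theiler stage 27). Tissue, sex, reporter and pooling differ together between the groups and cannot be told apart. Separate animals are not stated for the ureter arrays, and p-values therefore reflect the spread among 3 samples that may be technical repeats; the single reference array was assumed to vary like the ureters. In whole tissue, fewer cells of a type and less RNA per cell cannot be told apart either.

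The channel sits in the apical membrane of tight epithelia such as collecting duct, distal colon, airway and urinary bladder, where it lets sodium into the cell, and it is built from an alpha, a beta and a gamma subunit. Aldosterone binds the mineralocorticoid receptor, which Nr3c2 encodes; the receptor turns on genes such as Sgk1, whose kinase restrains the ligase made from Nedd4l and so keeps channels at the surface. The enzyme encoded by Hsd11b2 inactivates corticosterone and so leaves the receptor to aldosterone, and the sodium pump, of which Atp1b1 encodes the beta-1 subunit, moves sodium out at the basolateral side.

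Of the 3 channel subunits, the gamma subunit transcript was far higher in the ureters than in the newborn body, while the alpha and beta subunits did not pass the test. Scnn1g was the 1 member that passed, by at least 8.58-fold under the lowest of the array scalings tried. The probe sets of Nedd4l, Sgk1, Nr3c2, Hsd11b2 and Atp1b1 did not pass in either direction. Of 14 member probe sets tested, 1 was called higher and 0 lower by limma (Benjamini-Hochberg adjusted p under 0.05); the same 1 had an unadjusted p under 0.05. Over all 27022 probe sets tested 6.37% were called, 2.79% higher and 3.58% lower, so the members' share was near that of the arrays as a whole. Differences are of quantile-normalized log2(intensity + 12.23), a scale that understates the change of dim genes. The median log2 difference, ureter minus reference, was -0.22 over the 14 member probe sets and 0.11 over all those tested.

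Promoter sequences are given for 3 genes: the neighbours Scnn1g and Scnn1b, of which 1 was called, and Sgk1, the textbook aldosterone target. In the RefSeq annotation of GRCm38.p6, Scnn1g and Scnn1b lie on chromosome 7 with 0 protein-coding genes between them. RefSeq windows reaching 250 bases before a transcript start to 50 after it were at hand for 5 of the 8 members. In Scnn1g (chr7:121734229-121734528, plus strand) and Scnn1b (chr7:121864788-121865087, plus strand), capitals mark the GC box CCGCCC or its reverse complement GGGCGG. In the Sgk1 window (chr10:21993640-21993939, plus strand, 1 of 6 annotated starts) capitals mark the steroid receptor palindrome AGNACANNNTGTNCT, which reads the same on both strands. This window was picked from the 6 because it holds the palindrome, which the others lack. Its match was thus fixed by the choice of window.
Scnn1g: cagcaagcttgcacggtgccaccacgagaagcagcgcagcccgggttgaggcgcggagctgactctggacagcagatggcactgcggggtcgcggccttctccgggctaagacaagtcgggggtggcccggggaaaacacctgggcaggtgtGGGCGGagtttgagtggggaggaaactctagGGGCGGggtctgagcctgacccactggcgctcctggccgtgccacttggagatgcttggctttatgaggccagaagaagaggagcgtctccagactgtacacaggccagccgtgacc
Scnn1b: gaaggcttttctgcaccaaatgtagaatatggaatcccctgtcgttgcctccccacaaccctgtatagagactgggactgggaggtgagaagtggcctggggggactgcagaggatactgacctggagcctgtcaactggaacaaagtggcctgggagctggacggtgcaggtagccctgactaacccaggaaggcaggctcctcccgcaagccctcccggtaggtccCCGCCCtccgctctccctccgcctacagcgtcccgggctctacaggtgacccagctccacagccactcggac
Sgk1: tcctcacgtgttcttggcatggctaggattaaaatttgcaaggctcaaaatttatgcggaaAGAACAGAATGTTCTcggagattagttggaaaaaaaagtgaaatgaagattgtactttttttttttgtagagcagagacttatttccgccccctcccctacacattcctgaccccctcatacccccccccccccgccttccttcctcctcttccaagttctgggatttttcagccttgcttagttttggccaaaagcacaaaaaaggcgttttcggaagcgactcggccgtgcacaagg
The GC box was found at 2 places in the Scnn1g window and at 1 in that of Scnn1b, and 35.7% of all 32851 promoter windows hold it. The palindrome in the Sgk1 window begins 189 bases before the start and contains 2 of that window's 3 matches to the half-site AGAACA or TGTTCT. It was present in 21 of the 32851 windows (0.0639%), and the half-site in 19.0%. Neither the palindrome nor the half-site is written in the Scnn1g or Scnn1b window. These matches describe letters and were not tied to any measurement on the arrays.

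Scnn1g, which encodes the gamma subunit, had deposited intensities of 1959, 1266 and 1994 in ureter replicates 1, 2 and 3, against 176 in the reference. All 3 ureters were bright, and their SD of 0.38 on the normalized log2 scale was near the median of 0.37 over all probe sets tested. The reference did not exceed the background of its array, which was taken as the brightest of 27 bacterial control probe sets (188 there). The normalized log2 level averaged 10.75 ± 0.38 in ureters (SD, n = 3) and was 6.96 in the reference. The log2 difference, ureter minus reference, was 3.79 ± 0.47 (SE of the limma fit, 95% interval 2.65 to 4.92, adjusted p = 0.0136). Because the reference lay at background, the fold is given as a bound against background, which depends on the scaling: at least 8.58-fold higher with the arrays as deposited and at least 13.0-fold higher after quantile normalization. The bound was 8.58 to 16.1 over the settings in which it was computed. Leaving out ureter replicate 3 gave a difference of 3.58 and ended the call (adjusted p = 0.0693); in that fit the calls over all probe sets fell to 335, against 1721 with every array.

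Scnn1a, the alpha subunit gene, had the opposite order of groups. Its intensities were 150.0, 421 and 432 in the ureters, against 1021 in the reference. Every ureter lay below the reference, and replicate 1 was the dimmest of the ureters, with the brightest at 2.88 times its intensity. The log2 difference was -1.33 (95% interval -2.75 to 0.09) and did not pass (adjusted p = 0.233).

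Scnn1b, the beta subunit gene, read 454, 279 and 431 in the ureters and 274 in the reference. Replicates 1 and 3 were above the reference, and replicate 2 was almost level with it as deposited. After normalization the log2 difference was 1.11 (95% interval -0.43 to 2.65, adjusted p = 0.345). With the scaling as deposited it was 0.45. Each subunit has a single probe set, and levels of different probe sets cannot be set against each other, so these data give no ratio of subunits.

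**Figure D1:**
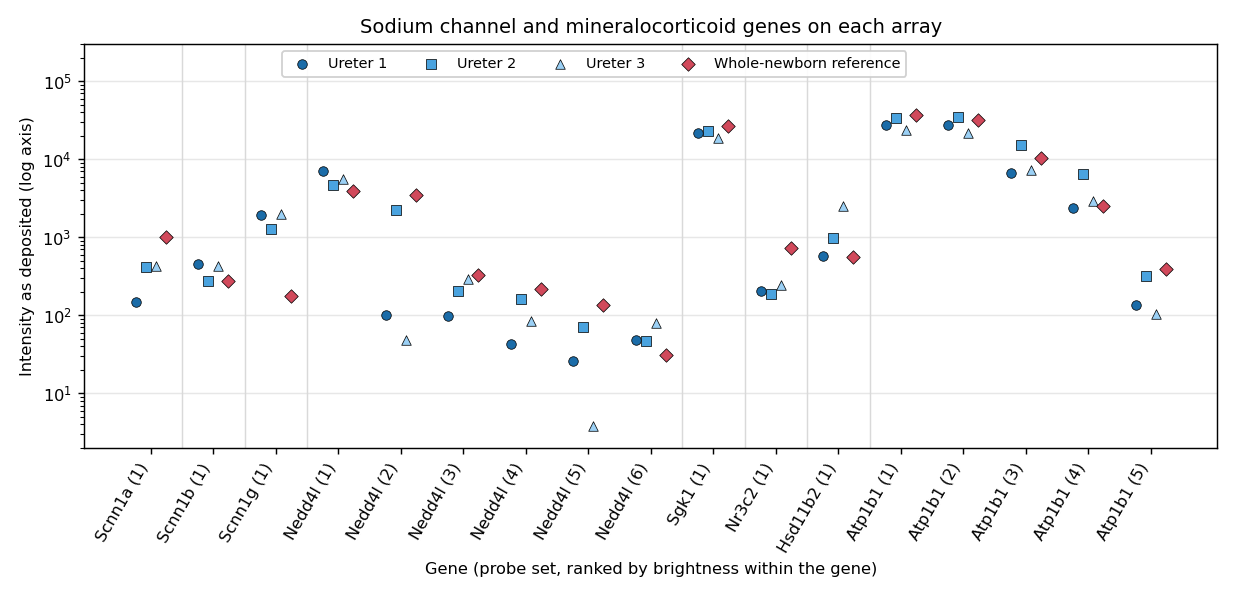
Intensity as deposited (log axis) of all 17 probe sets, each with the 3 ureter arrays (blue shades) and the reference array (red); numbers in brackets rank the probe sets of a gene by brightness. The ureter points of Scnn1g lie between 1266 and 1994, well above the reference at 176, whereas those of Scnn1a and Nr3c2 lie below theirs.

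Nr3c2, the receptor gene, gave 206, 189 and 247 in the ureters, against 720 in the reference. All 3 ureters lay below the reference, with an SD of 0.47 on the normalized log2 scale (n = 3), but replicate 2 did not exceed its array's background of 212. The log2 difference was -1.21 ± 0.59 (95% interval -2.64 to 0.22, adjusted p = 0.273). Hsd11b2 gave 579, 983 and 2497 in the ureters, against 560 in the reference. As deposited, replicate 3 stood apart at 4.31 times replicate 1, which was almost level with the reference. After normalization replicate 1 lay above the reference, at 9.45 against 8.74 on the log2 scale. The log2 difference of Hsd11b2, 1.48 ± 0.74, did not pass (95% interval -0.31 to 3.27, adjusted p = 0.285). That difference fell to 0.92 when replicate 3 was left out and to 0.99 on the deposited scaling.

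Sgk1 was bright everywhere, at 21391, 22880 and 18725 in the ureters and 26959 in the reference. It varied least between ureters of all member probe sets, with an SD of 0.13 on the normalized log2 scale (n = 3). The log2 difference was -0.36 (95% interval -0.85 to 0.12, adjusted p = 0.330). It turned to 0.36 when arrays were instead centred on their medians, so its direction is not settled.

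Nedd4l was measured by 6 probe sets that did not move together. The brightest gave 7127, 4665 and 5543 in the ureters and 3944 in the reference, a log2 difference of 0.43 (95% interval -0.37 to 1.22, adjusted p = 0.488). All 3 ureters lay above the reference there. The second brightest gave 102.5, 2260 and 48.4 in the ureters, against 3485 in the reference. Replicate 2 and the reference were high and the other ureters low, so the difference of -3.57 had an SE of 1.75 and did not pass (adjusted p = 0.277). Without ureter replicate 2 it was -5.11 and passed (adjusted p = 0.0175). Of the 16406 probe sets that exceeded an intensity of 1000 on some array, 56 were over 8 times brighter in both replicate 2 and the reference than in both other ureters; the same count was 5 for replicate 1 and 13 for replicate 3. Replicate 2 and the reference also had the highest signals of a control probe set for 18S ribosomal RNA, 74754 and 69755, against 15112 in replicate 1 and 25108 in replicate 3. The part of these array features in the Nedd4l reading was not tested. The third probe set of the gene differed by -0.09. The other 3 were dim, were dropped by the filter on low values and did not exceed background in any ureter.

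Atp1b1 was bright in both groups and showed no called difference in any of its 5 probe sets. The brightest gave 27209, 33616 and 23453 in the ureters, against 37048 in the reference, a log2 difference of -0.32 (95% interval -0.86 to 0.22, adjusted p = 0.439). The other 4 differed by between -0.46 and 0.49. The one with the positive difference, the fourth in brightness, read 2361, 6552 and 2921 in the ureters and 2498 in the reference, with replicate 2 alone clearly above the rest. Direction again depends on the scaling, since the brightest probe set gave 0.31 with median-centred arrays.

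**Figure D2:**
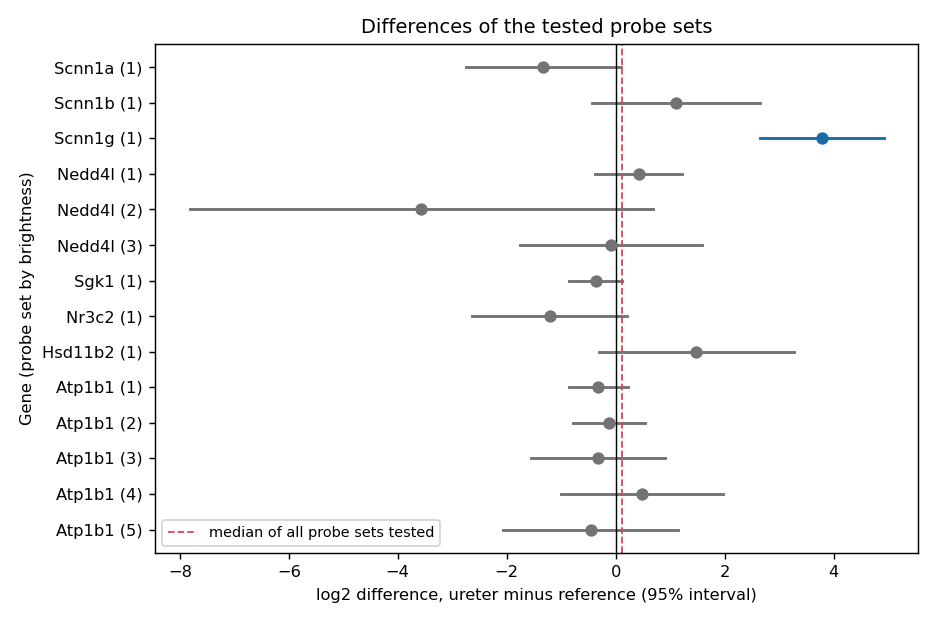
Log2 difference, ureter minus reference, of the 14 tested probe sets, with 95% intervals from the limma fit; the dashed line is the median of all probe sets tested (0.11). The interval of Scnn1g, 2.65 to 4.92, lies wholly above 0, and the other 13 intervals include 0.

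Spread between ureters differed among members. Over the 14 tested probe sets the median SD of the normalized log2 values was 0.55, against 0.37 over all probe sets tested, and 10 of the 14 exceeded the latter. The widest were the second probe set of Nedd4l (2.58) and Hsd11b2 (0.95).

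Kidney tubule transcripts varied between the ureter arrays, and their values are given because the collecting duct also uses several of the members. Of 16 markers of proximal tubule, thick limb and distal tubule, 13 were lowest in ureter replicate 1 among the ureters as deposited, and 12 were highest in replicate 2. Replicate 1 also had the lowest median intensity of the ureter arrays (154, against 259 and 186.5) and the lowest background (57.2, against 212 and 101.5). Replicate 2 had the highest of both. Dim probe sets of any kind may share that order, and the share over all probe sets was not computed. None of the 15 tested markers was called by limma, and 3 had an unadjusted p under 0.05. Their summed intensity was 1909, 25185 and 15736 in ureter replicates 1, 2 and 3, against 16186 in the reference. Slc12a1, the sodium-potassium-chloride carrier of the thick limb, read 29.4, 4114 and 651 in the ureters and 969 in the reference, and Umod, which encodes uromodulin, read 32.9, 1993 and 917, against 2046. In replicate 1 Slc12a1, Umod and the proximal phosphate carrier gene Slc34a1 (53.2) did not exceed background (57.2), and 10 of the 16 markers did, against 14 in replicate 2 and 15 both in replicate 3 and in the reference. Of all probe sets 66.7%, 53.8% and 60.2% exceeded background in ureter replicates 1, 2 and 3, and 61.2% in the reference. Each array was held to its own background, so these counts do not share 1 threshold. The summed level was 13.2 times as high in replicate 2 as in replicate 1. Calb1, listed under distal tubule, was the brightest of the 16 and carried much of that sum. It read 267, 10981 and 8584 in the ureters, against 2359 in the reference. Without Calb1 the sums were 1641, 14204 and 7152 in the ureters, against 13827, so replicate 2 was 8.65 times replicate 1 and replicate 3 lay well below the reference.

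Scnn1g read 1959 in replicate 1, where the tubule sum was lowest, and had its lowest ureter reading in replicate 2, where that sum was highest. Scnn1a and Hsd11b2 were both lowest in replicate 1 among the ureters. Both were highest among the ureters in replicate 3 (432 and 2497), not in replicate 2 (421 and 983), where the tubule sum was highest. The collecting duct has marker lists of its own, and whether the tubule markers are confined to the tubule was not tested. The part of kidney transcripts in the readings of Scnn1g, Scnn1a and Hsd11b2 was not tested either. The collecting duct water channel gene Aqp2, chosen after its values were seen, read 138, 561 and 402 in the ureters, against 266 in the reference, and did not pass (adjusted p = 0.424). Of 8 principal cell markers 7 were tested and 1 was higher, the water and glycerol channel gene Aqp3 (1.67 ± 0.34, adjusted p = 0.0447), which urothelium also expresses. Summed principal cell markers were 35494, 29611 and 30124 in the ureters, against 19723 in the reference, and Aqp3 and the sialyltransferase gene St6gal1, both widely expressed, carried most of that. Without Aqp3, St6gal1 and the member Hsd11b2 the sums were 715, 2230 and 1023 in the ureters, against 3474, so every ureter lay below the reference and replicate 1 was lowest. The water channel gene Aqp4 (-4.05), the transcription factor gene Elf5 (-2.10) and the pump regulator gene Fxyd4 (-0.20) had negative differences and did not pass. The genes left out of sums and these 3 were chosen after their values were seen. Aqp4 and Elf5 read 1079 and 1397 in the reference and so carried most of its 3474, whereas Aqp2 had a positive difference (1.01). The order of these sums therefore depends on which genes are kept. Of 7 intercalated cell markers 3 were tested and 1 was lower, the anion exchanger gene Slc4a1, which red cells also use. Without Slc4a1 the intercalated cell markers summed to 296, 1687 and 355 in the ureters, against 1719 in the reference, so replicate 2 was level with the reference. The podocyte markers gave 1 higher gene of 3 tested, Wt1 (2.77 ± 0.44), which is not confined to podocytes; their sum ran between 9389 and 18861 in the ureters, against 11708.

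**Figure D3:**
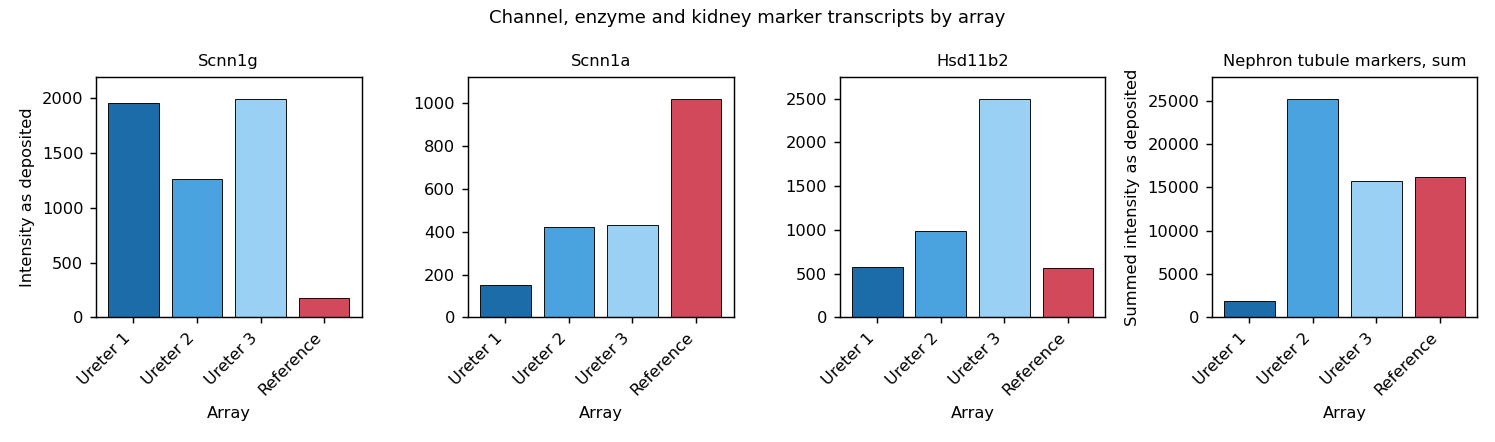
Bars are deposited intensities of Scnn1g, Scnn1a and Hsd11b2 and the summed intensity of 16 nephron tubule markers on each ureter array and on the reference, each panel with its own scale starting at 0. Scnn1g is high in ureter 1, where the tubule sum is 1909, whereas Scnn1a (150.0) and Hsd11b2 (579) have their lowest ureter reading there. The highest ureter reading of Scnn1a and of Hsd11b2 is in ureter 3, whereas that of the tubule sum is in ureter 2.

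Most urothelial and smooth muscle markers were higher in the ureters. Of 11 urothelial markers 8 were higher, led in brightness by Upk1b (5.64 ± 0.29), which encodes a uroplakin of the urothelial plaque; their sum was between 147175 and 210774 in the ureters, against 37306. Of 7 smooth muscle markers 5 were higher (sums between 133225 and 178126 in the ureters, against 68193), and of 6 fibroblast markers 1 was (244073 to 295314, against 267394). These counts use each gene's brightest probe set. For the fibroblast marker Pdgfra that probe set gave 0.49 and did not pass, whereas a dimmer one was called higher (3.23 ± 0.39). The urothelial marker Krt5 (-1.74) and the smooth muscle marker Des (-1.36) ran the other way and are named for that. Neither passed in limma (adjusted p = 0.0619 and 0.0906). The reference carried transcripts of lung, gut, skin and salivary gland, where the channel is also found. Of lung epithelial markers 3 of 5 tested were lower in ureters (sums 336 to 597, against 33612), of large intestine markers 4 of 7 (327 to 1153 without Krt20, against 12875), of epidermal markers 5 of 6 (6830 to 8786, against 193417) and of salivary gland markers 2 of 2 (55.2 to 109, against 44676). Krt20, a keratin gene that urothelium also expresses, ran the other way (2.59, adjusted p = 0.0581). So did the epidermal marker Ivl, which did not pass at its brightest probe set (0.75 ± 0.31). Ivl read 4472, 4623 and 4769 in the ureters, against 2645 in the reference, and so carried much of the ureters' epidermal sums. Its other probe set was called higher (2.82 ± 0.60), with a reference reading that did not exceed background. How far such organs set the reference level of Scnn1a or Nr3c2 was not tested.

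Among other genes of sodium transport and its control, few passed. Of 66 listed besides the members 59 were tested, of which 2 were higher and 1 lower, beside 7.94% called, 3.05% higher and 4.88% lower, among all 13718 genes read at their brightest probe set. Their median log2 difference was 0.01.

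The channel's proteolytic regulators gave 1 call in each direction among 8 genes. Tmprss2, a serine protease gene of epithelial membranes, read 16366, 13770 and 15250 in the ureters, against 3619 in the reference (1.97 ± 0.24, adjusted p = 0.0134), and both its other tested probe sets were also called higher. Tmprss4, a related protease gene, read 478, 249 and 266, against 2652 (-2.95 ± 0.63, adjusted p = 0.0498). Neither gene's groups overlapped as deposited, but with 1 reference array this also held for genes that did not pass, such as Pdpk1 and Cul3. Prss8, which encodes prostasin, the protease best known for activating the channel, just missed the threshold at 1.82 ± 0.41 (adjusted p = 0.0577) and is named for that value. The membrane protease gene St14 (0.19) and the convertase gene Furin (0.17) did not pass. Tmprss4 lost its call under 6 of 10 alternatives, with adjusted p up to 0.162, and Tmprss2 lost it without ureter replicate 3 (0.0791) and without an intensity trend (0.0620).

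Among sodium pump genes, Fxyd3, a small regulator of the pump, was higher in ureters. It read 3159, 3308 and 3741, against 1104 in the reference (1.79 ± 0.35, adjusted p = 0.0381), the only call among 8 tested besides Atp1b1; it lost the call under 5 of 10 alternatives, among them the omission of ureter replicate 1 (0.0536) or 3 (0.181). Atp1b2 (0.01) and the kidney pump regulator gene Fxyd2 (-0.07) did not pass; Fxyd2 read 35.6, 971 and 384 in the ureters, against 443.

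The remaining lists had 0 calls by limma at each gene's brightest probe set. They were the channel's ubiquitin pathway (6 tested, median -0.05, with Nedd4 at 0.05 and Ywhab at -0.01), the kinases around Sgk1 (7 tested, median -0.47, with Pdpk1 at -0.33 and Akt1 at 0.32) and the steroid receptor and hormone genes (5 tested, median -0.21, with the receptor chaperone genes Fkbp4 at 0.03 and Fkbp5 at -0.21). In the last list Hsd11b1, which regenerates corticosterone, stood just outside the threshold at -1.77 ± 0.38 (adjusted p = 0.0503; chosen after its value was seen). Of 9 corticosteroid-induced genes besides Sgk1 none passed (median 0.27), with Tsc22d3, known as Gilz, at -0.18. Nor did any of 14 genes of the WNK pathway and apical ion transport (median 0.14, with Wnk2 at 0.11 and Cul3 at 0.17; 1 of the 3 other probe sets tested of the potassium channel gene Kcnma1 was called higher, at 2.59 ± 0.41, while its brightest gave -1.62), or of 3 chromatin factors tied to repression of Scnn1a in collecting duct cells, Dot1l (-1.16) and Mllt3 (0.18) among them. Genes with an unadjusted p under 0.05 numbered 1, 2, 2, 1, 3 and 1 in these 6 lists in turn. The 1 among the chromatin factors was Hdac4 (-1.40, adjusted p = 0.126 in limma), chosen after its value was seen.

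**Figure D4:**
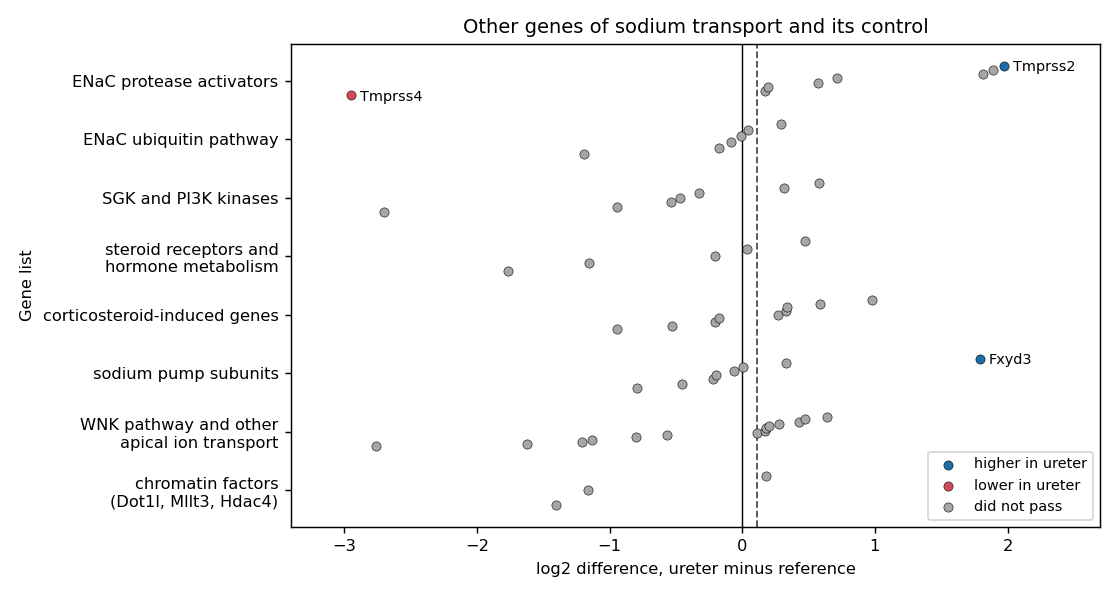
Log2 differences, ureter minus reference, of the tested genes in 8 lists of sodium transport and its control, at each gene's brightest probe set; colour shows limma's call and the dashed line the median of all probe sets. Tmprss2 and Fxyd3 are the higher calls and Tmprss4 the lower one.

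The genes whose 4 array values were nearest to those of Scnn1g, by Euclidean distance of log2 values centred on each gene's mean, were Lrrc10b (0.29), Fer1l4 (0.36) and Synpo2 (0.38) of 13717 compared. Lrrc10b read 889, 544 and 734 in the ureters, against 76.2 in the reference. The reference value of Scnn1g, Lrrc10b and Fer1l4 did not exceed background, so these distances describe the intensities as read and give no order.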

How the data were processed

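Transcripts were measured on Affymetrix MOE430 arrays after 2 rounds of amplification, per the labels. The authors deposited linear intensities made with GCOS, per the submitters' processing notes. Their trimmed mean (2% off each tail) was 1500 on every array, so the authors had scaled them; the sources used here do not describe the background treatment. Median intensities were 154, 259 and 186.5 in ureter replicates 1 to 3 and 332 in the reference, and 53.8% to 66.7% of probe sets exceeded the bacterial background, which limits precision for dim genes, as does the number of arrays.

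Of 45101 probe sets 64 controls were left out. Values were log2(intensity + 12.23), quantile normalized; the offset is the 10th percentile of all values and makes folds of dim genes too small. The dimmest 40% of probe sets, by the average of both group means, were dropped, and 27022 were fitted with limma 3.58.1 in R 4.3.3 (lmFit, then eBayes with a trend on intensity), using two-sided p-values adjusted by Benjamini-Hochberg over that whole table and 2 residual degrees of freedom. The fit was tested on simulated data with changes of 1, 2, 3 or 5 log2 units in 50 probe sets each. It recovered 2, 22, 40 and 44 of them in turn and made 9 false calls, so it misses most changes of 1 log2 unit. The changed probe sets were drawn from the brighter ones by ureter mean. All simulated arrays, the reference included, were given the spread of the fit itself. The counts therefore do not cover dim genes or a reference that varies otherwise than the ureters. The brightest probe set stood for its gene. Where the dimmer group did not exceed background on any array, the fold is a bound, the brighter group's mean against the higher of background and the probe set's own level. Symbols came from the supplied platform annotation. Genes named are all members, up to 3 called and 2 least changed genes of each pathway list, up to 3 brightest of a marker list, and the 3 nearest to Scnn1g. Alternatives covered normalization, offset, filter, variance trend, probe set averaging and each ureter left out. The members and lists were chosen with earlier results of these data known.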

Additional observations from a re-analysis of the deposited data

How the results depend on the processing

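Scnn1g stayed higher under all 11 alternatives run, by 3.19 to 4.09 on the log2 scale. It lost its call in 1 of them, without ureter replicate 3. Leaving out a ureter gave 3.52 to 4.09. The filter and trend settings cannot move a difference, only its SE and adjusted p. Averaging probe sets cannot move the difference of a gene with 1 probe set. In all those settings Scnn1g therefore stood at 3.79, as in the main fit. Of 88 alternative values of the 8 member genes 84 kept direction and side of the threshold. That count includes the settings in which the direction could not change. The reversed ones were Nedd4l when all its probe sets were averaged (-0.60), and Sgk1 (0.36) and Atp1b1 (0.31) with median-centred arrays; at dimmer probe sets the third of Nedd4l (-0.42 to 0.13 as each ureter was left out, positive without replicate 1 or 2), and the second (0.54) and the third (0.55) of Atp1b1 with median-centred arrays, the second also as each ureter was left out (-0.26 to 0.056, positive without replicate 3). All these values missed the threshold, and the cause was not tested. Leaving out a ureter gave 0 to 1 member probe sets called higher and 0 to 1 lower.

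Over all probe sets 753 were higher and 968 lower, against 444 higher and 882 lower with the scaling as deposited and 723 higher and 780 lower with median-centred arrays; the median of all probe sets was 0.11, -0.13 and 0.60 in turn; small differences should be read against it. Without a filter 1139 were called (424 higher) and without the trend 922 (273 higher). Leaving out a ureter gave 335 to 2279 calls, 53 to 997 of them higher and 282 to 1282 lower. Of the other pathway genes, 1 was higher as deposited, and 0 were higher and 0 lower without replicate 3, where 8 marker genes were higher, against 16 with every array. No paired analysis was possible because the replicate numbers were given in accession order and the reference has 1 array. With 3 arrays against 1 the intervals of uncalled members are wide, and probe sets at background have no order.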
